A study of Mus musculus with 21 samples.

Results

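The dorsal wall of the subventricular zone (SVZ) of the CD1 mouse was followed over the first postnatal week by sequencing its small RNA. The description rests on 6 of the 21 libraries of the series, namely 3 from dorsal SVZ taken at postnatal day 1 (P1) and 3 from dorsal SVZ taken at P6, and on the rows that the deposited table types as microRNA. The libraries were chosen by the wall and age in their labels, and no measured value entered the choice. All 6 come from dissected tissue of the outbred CD1 strain, with no genotype and no treatment stated. The 3 libraries of lateral SVZ at each of the same ages, from the same strain, serve as a comparison. The labels do not say whether replicates were different animals, and p-values therefore measure the spread between samples. That spread was estimated over all 21 libraries of the series. The tissue is bulk, and fewer cells of a kind cannot be told apart from less of a microRNA per cell.

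The SVZ lies beside the lateral ventricles and holds the neural stem cells that keep producing neurons for the olfactory bulb after birth. Its dorsal wall is known for certain olfactory interneurons, for late glutamatergic neurons and for oligodendrocytes that move into the overlying white matter, and an ependymal layer of multiciliated cells forms along the ventricle in the days after birth. A microRNA is cut from a hairpin precursor into a short duplex, of which usually 1 arm (the mature form) is loaded into Argonaute and the other (the star form, marked with an asterisk) is mostly lost. The loaded arm finds messenger RNAs mainly through its seed, so microRNAs that share a seed can share targets whatever the rest of their sequence.

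The values are scores, which are normalized read counts rounded to whole numbers, without a unit. The read depth behind them is unknown. Ranked values were proportional between libraries, so the score of an abundant microRNA mostly records its rank, and column totals (2975355 to 3467000 in the dorsal libraries) are not depths. Of 1445 microRNA rows, 1149 were above 0 in at least 1 dorsal library. The 807 rows with a score of at least 10 in at least 3 of the 21 libraries were tested, and 737 of these reached 10 in a dorsal library. They comprise 397 mature forms, 183 star forms and 227 hairpins, the last written with the prefix pre-mir. Over the tested rows the dorsal libraries of an age correlated with r between 0.946 and 0.956, and libraries of different ages with r between 0.919 and 0.945. In their makeup by RNA class, 2 libraries stood apart before any test. In dorsal P1 replicate 1 tRNA took 16.4% of the score, against 10.3% to 11.7% in the other 5. In dorsal P6 replicate 2 snoRNA took 9.42%, against 2.27% to 4.16%. Counts are therefore also given without these 2, called the pair below, an alternative chosen after the data were seen.

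The mature sequences below are those on which the results turn. They come from RefSeq (GRCm38.p6), in which 50 of 57 looked-up microRNAs were matched. The table uses older names without an arm, and the arm was taken from the naming convention. Capitals mark the seed, bases 2 to 8 counted from the 5′ end. The first set shares the seed GGCAGUG, carried by 4 of the 1679 mature names in the RefSeq table. Every one of these 4 had a higher mean at P6, but the log2 difference was positive in 603 of all 807 tested rows. Among the 4, miR-449c did not pass the limma test (adjusted p = 0.0965). miR-34c, miR-375, miR-219-3p, miR-383, miR-487b, miR-301b and miR-124* had no match in the RefSeq table and are named only.
miR-34a: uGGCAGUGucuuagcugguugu
miR-34b-5p: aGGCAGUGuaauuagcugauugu
miR-449a: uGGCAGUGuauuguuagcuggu
miR-449c: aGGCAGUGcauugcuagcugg
The opposite arms of the hairpins of miR-34b and miR-34c, which rose as well, share another seed.
miR-34b-3p: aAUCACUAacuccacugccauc
miR-34c*: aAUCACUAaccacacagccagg
The miR-29 family holds all 3 names with the seed AGCACCA, and each of its mature forms rose.
miR-29a: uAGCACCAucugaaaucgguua
miR-29b: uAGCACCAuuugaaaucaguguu
miR-29c: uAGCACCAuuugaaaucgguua
Next to these stand other mature forms that rose and were matched, and 1 star form, shown because none of their seeds recurs in the sets above.
miR-365: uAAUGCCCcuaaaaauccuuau
miR-193b: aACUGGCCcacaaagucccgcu
miR-138: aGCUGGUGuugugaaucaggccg
miR-138-1*: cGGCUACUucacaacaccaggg
miR-204: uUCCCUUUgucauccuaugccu
miR-338-5p: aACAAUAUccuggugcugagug
miR-873: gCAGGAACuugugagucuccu
miR-666-3p: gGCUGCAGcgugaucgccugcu
miR-544-3p: aUUCUGCAuuuuuagcaagcuc
miR-410: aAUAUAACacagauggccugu
miR-770-3p: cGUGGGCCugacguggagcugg
Among the microRNAs that fell, miR-708 is shown with miR-28, the only other RefSeq name with its seed, and miR-130b with miR-130a and miR-301a of the same seed.
miR-708: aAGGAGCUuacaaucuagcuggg
miR-28: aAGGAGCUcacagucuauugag
miR-130b: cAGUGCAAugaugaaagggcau
miR-130a: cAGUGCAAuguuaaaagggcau
miR-301a: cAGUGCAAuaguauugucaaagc
The star forms of miR-181a-1 and miR-181c share their seed, and miR-7a-1* has one of its own.
miR-181a-1*: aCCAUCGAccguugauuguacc
miR-181c*: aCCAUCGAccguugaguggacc
miR-7a-1*: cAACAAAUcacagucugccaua
The last set shares the seed AGCAGCA while its members moved in opposite directions.
miR-16: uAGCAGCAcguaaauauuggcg
miR-497: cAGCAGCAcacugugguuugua
miR-195: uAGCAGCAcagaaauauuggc
miR-15b: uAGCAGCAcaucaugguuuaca

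On the deposited scores, most microRNAs called in dorsal SVZ between P1 and P6 were higher at P6, a split that depended on the scaling (below). Among called rows with a mean of at least 50 at P6, the largest rises were those of miR-34b and miR-34c, miR-375, miR-219-3p and star forms of miR-138 and miR-34c, each more than 10-fold. Called falls on these scores were fewer and smaller, and among them only miR-708, miR-130b and miR-181a-1* exceeded 2-fold. Of the 807 rows tested, 168 (20.8%) were called at an adjusted p under 0.05 (limma on log2(score + 1), two-sided, Benjamini-Hochberg adjustment over all 807). Higher at P6 were 161 (20%), of which 149 by at least 2-fold, and lower were 7 (0.867%). The fit took its spread from all 21 libraries. Fitted on the 6 dorsal libraries alone, it called 52 higher and 3 lower. The 3 libraries of an age did not overlap those of the other age in 242 rows (30%), with P1 above in 28 and P6 above in the rest. Fold changes are given as log2 differences ± SE on the log2(score + 1) scale, which understates the change of low rows.

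The split of the calls by direction depended on the scaling. Across all 807 rows the median log2 change was 0.54 as deposited, 0 after trimmed-mean scaling, -0.22 after centring each library on its median microRNA and 0.42 after division by the highest score. The calls were 97 higher and 61 lower with trimmed-mean scaling, 70 higher and 97 lower with the median, and 154 higher and 18 lower with the highest score. Rows called under all 4 scalings numbered 70 higher (8.67%) and the same 7 lower (0.867%). Without the pair 83 were called higher and 7 lower, and 80 of the original 161 and 4 of the original 7 kept their call. Leaving out dorsal P1 replicate 1 alone left 106 higher.

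**Figure D1:**
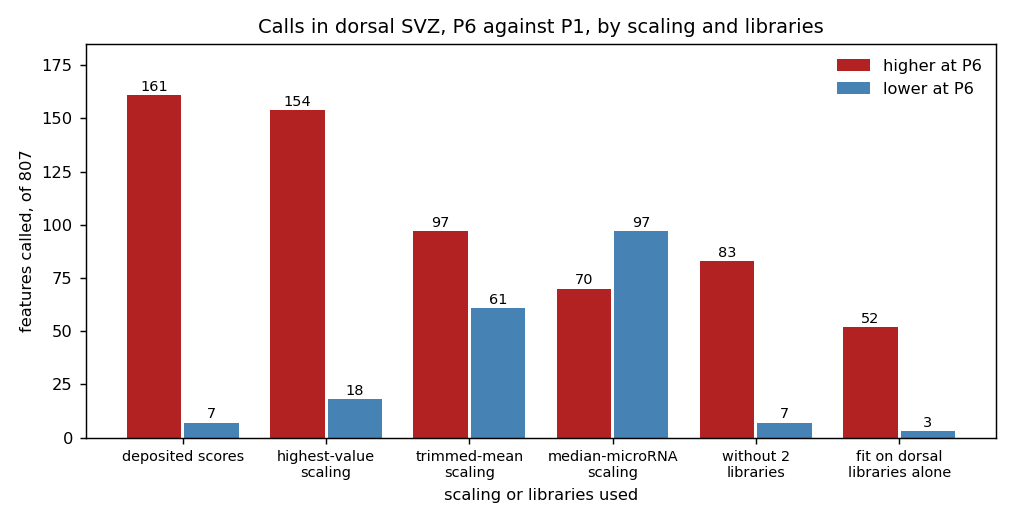
Number of the 807 tested microRNA rows called higher (red) or lower (blue) at P6 in dorsal SVZ, on a linear vertical axis, for the deposited scores, 3 other scalings, the fit without 2 libraries of unusual class makeup, and the fit on the 6 dorsal libraries alone. Calls higher at P6 range from 52 to 161, while calls lower at P6 range from 3 to 97 and follow the scaling.

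The shift also depended on the level. In the 392 rows with a mean dorsal score under 50 the median log2 change was 0.67, with 55 rows higher and 0 lower. In the 229 rows from 50 to 500 it was 0.59, with 65 higher. It was 0.24 in the 130 rows from 500 to 5000, where 34 were higher and 5 lower. In the 56 rows of 5000 or more it was -0.01, with 7 higher and 2 lower. Mature forms had 100 higher and 3 lower of 397, star forms 35 higher and 4 lower of 183, and hairpins 26 higher and 0 lower of 227. How reads of a mature form and of its hairpin were separated is not given in the sources used here.

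**Figure D2:**
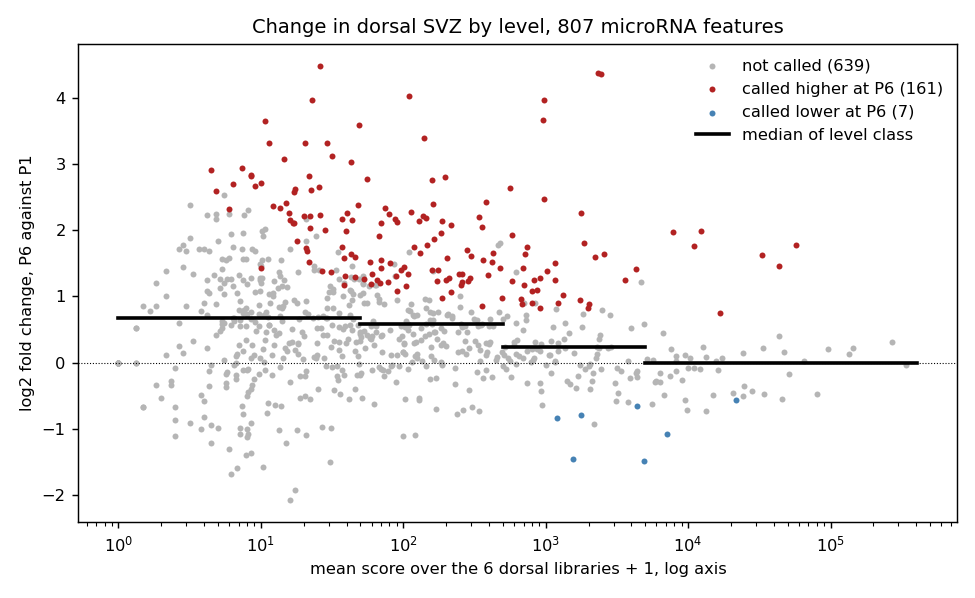
Log2 fold change of P6 against P1 in dorsal SVZ (vertical axis) against the mean score over the 6 dorsal libraries plus 1 (horizontal log axis) for the 807 tested rows, red where higher and blue where lower at P6. The black bars give the median of each level class, which goes from 0.67 in the lowest class to -0.01 in the highest.

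The 10 mature or star forms with the highest scores, from miR-99a and miR-125b-5p at the top through miR-9, miR-130a, miR-100, miR-124, miR-103, miR-9* and let-7b, gave 1 call on the deposited scores, miR-29a, which is described with its family. With trimmed-mean and median-microRNA scaling miR-9* was also called, as lower. miR-99a scored 344349, 342168 and 343283 at P1 and 279279, 368070 and 362612 at P6. miR-9, a microRNA of neural progenitors, scored 153067, 97536 and 152593 at P1 and 177274, 126923 and 161185 at P6. miR-124, the most neuron-specific of the set, scored 72251, 117991 and 84551 at P1 and 37709, 104919 and 67299 at P6. The ages overlapped for each of these 3, and none passed the test.

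MicroRNAs of multiciliated cells gave the largest changes. The miR-34b/c and miR-449 microRNAs repress regulators that hold back the formation of motile cilia, and miR-204 and miR-211 are abundant in choroid plexus. miR-34c scored 190, 222 and 259 at P1 and 3821, 5622 and 4449 at P6. Every P6 library was far above every P1 library, a rise of 4.36 ± 0.35 on the log2 scale (20.5-fold, adjusted p = 1.61e-08). miR-34b-5p scored 186, 111 and 370 at P1 and 2374, 5741 and 5129 at P6, a rise of 4.38 ± 0.44 (20.8-fold, adjusted p = 3.13e-07). miR-34b-3p, the other arm of that hairpin, scored 79, 210 and 87 at P1 and 2163, 1713 and 1545 at P6, a rise of 3.97 ± 0.42. The ages were again wide apart for both arms.

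The star form and the hairpin of miR-34c moved with it. miR-34c* scored 28, 19 and 22 at P1 and 186, 327 and 252 at P6 (3.39 ± 0.60), and pre-mir-34c scored 4, 1 and 0 at P1 and 48, 61 and 36 at P6 (adjusted p = 0.000112). Mir34b and Mir34c are neighbours within 10 kb in RefSeq. The family members at other loci rose less. miR-449a scored 3350, 6269 and 5745 at P1 and 17532, 13999 and 19404 at P6, a rise of 1.77 ± 0.40 (3.40-fold, adjusted p = 0.00242). miR-34a, which shares the seed and is best known as a target of p53, scored 647, 589 and 589 at P1 and 1455, 1788 and 1952 at P6, a rise of 1.50 ± 0.27 (adjusted p = 0.000262), and its call was lost with median-microRNA scaling (adjusted p = 0.0960). miR-449c averaged 220.3 ± 76.9 (SD, n = 3) at P1 and scored 732, 645 and 846 at P6, without overlap but short of the threshold (adjusted p = 0.0965). miR-449b scored at most 10 in any dorsal library. The star form of miR-449a did not move with it. miR-449a* averaged 191 at P1 and 178 at P6, with a log2 change of 0.02, and was not called. The values of miR-34a, miR-449a, miR-449a*, miR-449b, miR-449c and pre-mir-34c were chosen for naming after they had been seen.

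Of the choroid plexus markers, miR-204 scored 1042, 1474 and 1153 at P1 and 4893, 2763 and 3974 at P6, a rise of 1.64 ± 0.25 (adjusted p = 3.39e-05). miR-211, with the same seed UCCCUUU, scored 14, 27 and 14 at P1 and 83, 50 and 38 at P6 (adjusted p = 0.0160), and its call was lost in 6 of 20 alternatives (adjusted p = 0.0501 to 0.128), among them the omission of dorsal P1 replicate 1, P1 replicate 3 or P6 replicate 1. Median-microRNA scaling ended the call of miR-211 as well. The list of multiciliated and choroid plexus microRNAs had 9 of 16 members higher and 0 lower, beside 20% higher among all 807 rows. The list's median log2 change was 1.73, against 0.54 over all rows. The summed score of its members was 5118 to 8865 at P1 and 31033 to 35816 at P6. With trimmed-mean scaling 8 members were called higher, with median-microRNA scaling 7, and without the pair 7. In lateral SVZ 11 of the same 16 were called higher.

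**Figure D3:**
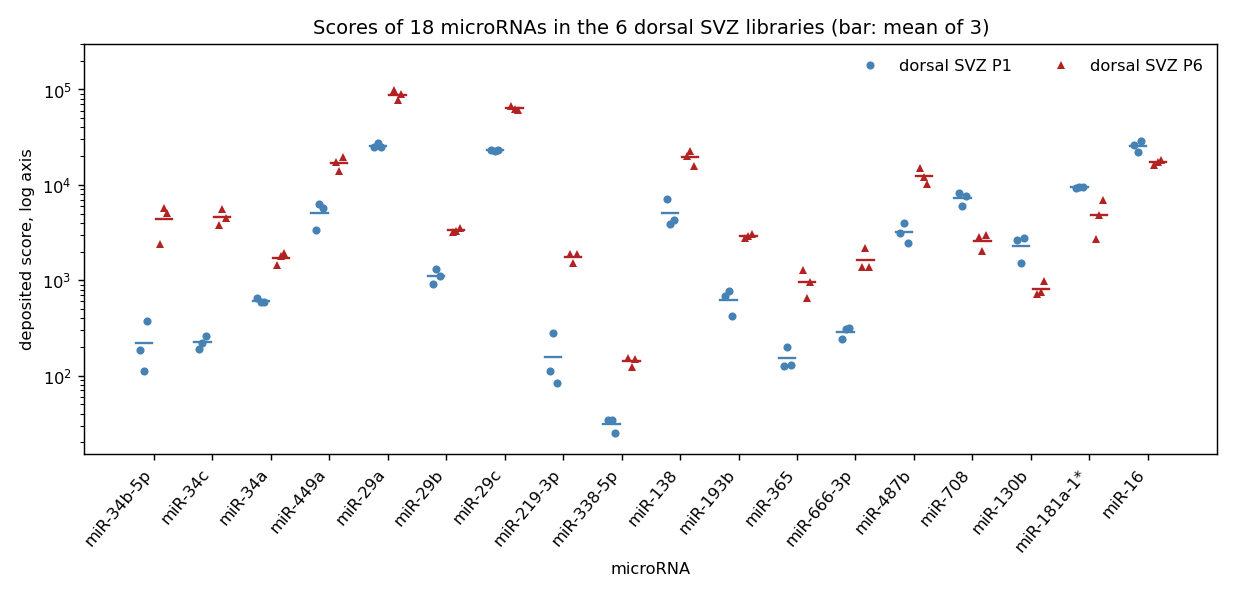
Deposited scores (vertical log axis) of 18 microRNAs in each of the 3 dorsal SVZ libraries at P1 (blue circles) and the 3 at P6 (red triangles), with a bar at the mean of 3. The first 14, miR-34b-5p to miR-487b, lie higher at P6 without overlap. Their log2 changes run from 4.38 (miR-34b-5p) down to 1.46 (miR-29c). miR-708, miR-130b, miR-181a-1* and miR-16 lie lower.

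Oligodendrocyte microRNAs rose in part. miR-219 and miR-338 are induced in oligodendrocyte precursors as they stop dividing and are needed for their differentiation. miR-219-3p scored 113, 280 and 83 at P1 and 1900, 1532 and 1882 at P6, a rise of 3.66 ± 0.37 (12.7-fold, adjusted p = 3.13e-07). Its hairpin pre-mir-219-2 scored 41, 134 and 89 at P1 and 383, 355 and 283 at P6 (2.08 ± 0.42, adjusted p = 0.00102). The ages did not overlap for either. The call of this hairpin was lost when the dorsal libraries were fitted alone (adjusted p = 0.0598). By contrast pre-mir-219-1 scored 121, 309 and 377 at P1 and averaged 194 ± 23.6 (SD, n = 3) at P6, and miR-219-5p, which both hairpins can give, averaged 99.3 ± 27.5 (SD, n = 3) at P1 and scored 130, 148 and 117 at P6. These overlapped between the ages and did not pass.

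miR-338-5p scored 34, 34 and 25 at P1 and 154, 123 and 149 at P6, a rise of 2.17 ± 0.32 (adjusted p = 3.33e-05). The far higher scores of the other arm, miR-338-3p, were 462, 589 and 581 at P1 and 1413, 895 and 1234 at P6, a rise of 1.10 ± 0.27 (adjusted p = 0.00475) whose call was lost with trimmed-mean and median-microRNA scaling (adjusted p = 0.0897 and 0.347). In all, 5 of 8 oligodendrocyte rows were higher and 0 lower as deposited, beside 20% higher among all 807 rows. Their median was 1.16, against 0.54 over all rows, and 4 rows were higher without the pair. The count was 3 with trimmed-mean scaling, and 3 higher and 1 lower with the median. The summed score was 763 to 1142 at P1 and 2796 to 3652 at P6.

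MicroRNAs that mark neurons also rose, though not as a whole. miR-138, which limits the size of dendritic spines, scored 7052, 3887 and 4286 at P1 and 20230, 22734 and 15941 at P6, a rise of 1.99 ± 0.24 (3.97-fold, adjusted p = 2.42e-06). Its star form from the first hairpin, miR-138-1*, scored 3, 19 and 3 at P1 and 116, 100 and 46 at P6 (3.59 ± 0.61), and that hairpin, pre-mir-138-1, scored 47, 55 and 54 at P1 and 262, 134 and 158 at P6 (1.75 ± 0.29). All 3 rows were higher in every P6 library than in any P1 library. The mature form can also come from the second hairpin, pre-mir-138-2, chosen after its values were seen, which overlapped between the ages and did not pass (adjusted p = 0.0741). The call of miR-138-1* was lost when the 6 dorsal libraries were fitted alone (adjusted p = 0.0601).

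miR-129-2-3p scored 2172, 2658 and 2199 at P1 and 6927, 5290 and 6509 at P6, a rise of 1.41 ± 0.20 (adjusted p = 2.42e-05), lost with median-microRNA scaling (adjusted p = 0.103). Chosen after their values were seen, miR-128, a brake on neuronal excitability, and the neighbouring pair miR-132 and miR-212-3p, which respond to neuronal activity and share the seed AACAGUC, were also higher. miR-128 scored 14939, 17357 and 13056 at P1 and 83678, 40876 and 28947 at P6 (1.62 ± 0.31), a call lost with median-microRNA scaling and when the dorsal libraries were fitted alone (adjusted p = 0.0639 and 0.0765). miR-132 scored 186, 289 and 197 at P1 and 677, 552 and 445 at P6 (1.32 ± 0.33), lost with trimmed-mean scaling, with median-microRNA scaling and without the pair (adjusted p = 0.0778, 0.230 and 0.0685). Of the 35 neuron-enriched rows 14 were higher and 1 lower, beside 20% higher among all 807 rows. Their median was 1.25, against 0.54 over all rows. The counts were 9 higher and 1 lower with trimmed-mean scaling, 6 higher and 2 lower with the median, and 9 higher and 0 lower without the pair. Under all 4 scalings 6 were higher and 1 lower. miR-212-3p was among the calls lost without the pair. miR-212-3p lost its call in 10 of 20 alternatives (adjusted p = 0.0604 to 0.423), among them the omission of dorsal P1 replicate 1, P1 replicate 3, P6 replicate 1 or P6 replicate 2. Trimmed-mean and median-microRNA scaling ended it as well. The fall was in miR-124*, which scored 1312, 1793 and 1501 at P1 and 907, 774 and 887 at P6, a difference of -0.83 ± 0.24 (adjusted p = 0.0149). It was lost without dorsal P1 replicate 2, without dorsal P6 replicate 2 and without the pair (adjusted p = 0.0584 to 0.0674). The progenitor list of miR-9 and miR-92b had 0 of 8 rows called by limma and 2 with an unadjusted p under 0.05. Its median was 0.23 as deposited, and -0.35 and -0.54 under trimmed-mean and median-microRNA scaling. Under each of these scalings 1 row of the list was called lower, miR-9* (adjusted p = 0.0437 and 0.0246).

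The miR-29 family, which accumulates as the brain matures and represses DNA methyltransferases and collagens, rose in all its mature forms. miR-29a scored 24995, 27315 and 24918 at P1 and 98226, 77228 and 89311 at P6, a rise of 1.77 ± 0.19 (3.41-fold, adjusted p = 4.39e-07). miR-29c scored 23080, 22934 and 23009 at P1 and 67073, 61904 and 60986 at P6 (1.46 ± 0.19), and miR-29b, cut from both loci of the family, scored 911, 1321 and 1116 at P1 and 3202, 3282 and 3528 at P6 (1.59 ± 0.20). The spread within an age was small beside the distance between the ages in each case. The call of miR-29c was lost with median-microRNA scaling (adjusted p = 0.0680). The hairpin pre-mir-29b-1 scored 17, 15 and 13 at P1 and 57, 66 and 64 at P6. Together 6 of 11 rows were higher and 0 lower, with a median of 1.46, beside 20% higher and a median of 0.54 over all rows. The count was 4 with trimmed-mean scaling, 3 with median-microRNA scaling and 4 without the pair. The summed score lay between 49084 and 51744 at P1 and between 142718 and 168928 at P6.

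Among the microRNAs outside every list, 56 of 380 rows were higher and 1 lower, beside 20% higher among all 807 rows. The lists were chosen with earlier results of these data known, so nothing is drawn from the smaller share outside them. miR-375, known from pancreatic islets and other neuroendocrine cells, scored 8, 22 and 8 at P1 and 248, 213 and 151 at P6, a rise of 4.03 ± 0.57 (16.3-fold, adjusted p = 1.88e-05). miR-365 scored 127, 201 and 129 at P1 and 1281, 654 and 957 at P6, a rise of 2.63 ± 0.35 (adjusted p = 9.03e-06). miR-193b, whose gene neighbours a gene of miR-365 in RefSeq and which was chosen after its values were seen, scored 690, 768 and 419 at P1 and 2743, 2896 and 3085 at P6, a rise of 2.26 ± 0.22 (adjusted p = 2.65e-07). This locus is best known for its part in brown fat differentiation. miR-383 scored 41, 66 and 22 at P1 and 307, 245 and 263 at P6 (2.76 ± 0.41). miR-873 scored 52, 66 and 37 at P1 and 315, 263 and 236 at P6 (2.40 ± 0.34), and its hairpin pre-mir-873 scored 26, 5 and 13 at P1 and averaged 94.3 ± 41.5 (SD, n = 3) at P6 (2.77 ± 0.51). None of these overlapped between the ages, and all but pre-mir-873 kept the call under each of 20 alternatives. The hairpin lost it when the dorsal libraries were fitted alone (adjusted p = 0.0796).

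The imprinted Dlk1-Dio3 region, whose long microRNA cluster is transcribed from the maternal chromosome and is largely brain-specific after birth, contributed 54 of the 161 rises. Of its 107 tested rows 54 (50.5%) were higher and 0 lower, against 107 of the 700 other rows (15.3%). A positive difference was found in 98 of the 107, and in 603 of all 807 rows. The calls comprised 35 of 57 mature forms, 10 of 24 star forms and 9 of 26 hairpins. The median log2 change was 1.34. Under other scalings 36 higher and 1 lower (trimmed-mean) or 29 higher and 3 lower (median) were found, the 29 being those called under all 4 scalings, and 32 higher without the pair. The summed score was 21061 to 30771 at P1 and 52156 to 79827 at P6.

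miR-666-3p of this region scored 243, 312 and 314 at P1 and 1382, 2165 and 1382 at P6, a rise of 2.48 ± 0.27 (5.56-fold, adjusted p = 6.51e-07). miR-487b, with much higher scores, stood at 3115, 4025 and 2488 at P1 and 15168, 12122 and 10254 at P6 (1.97 ± 0.24). miR-323-3p scored 581, 951 and 981 at P1 and 2994, 2927 and 2628 at P6 (1.80 ± 0.23). In each of these 3 the lowest P6 library was more than 2-fold above the highest P1 library. miR-544-3p scored 28, 60 and 56 at P1 and 480, 364 and 192 at P6 (2.80 ± 0.41). miR-410 averaged 117 ± 36.1 (SD, n = 3) at P1 and scored 876, 648 and 399 at P6 (2.42 ± 0.38). miR-770-3p scored 8, 4 and 13 at P1 and averaged 76.0 ± 43.7 (SD, n = 3) at P6 (3.02 ± 0.51). The P6 scores of miR-544-3p and miR-410 spread by more than 2-fold among themselves and still lay above all P1 scores. miR-411* scored 41, 60 and 52 at P1 and 297, 240 and 178 at P6 (2.19 ± 0.29). Of the 16 rows of the region with a mean score above 1000 at P6, 10 were called higher.

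**Figure D4:**
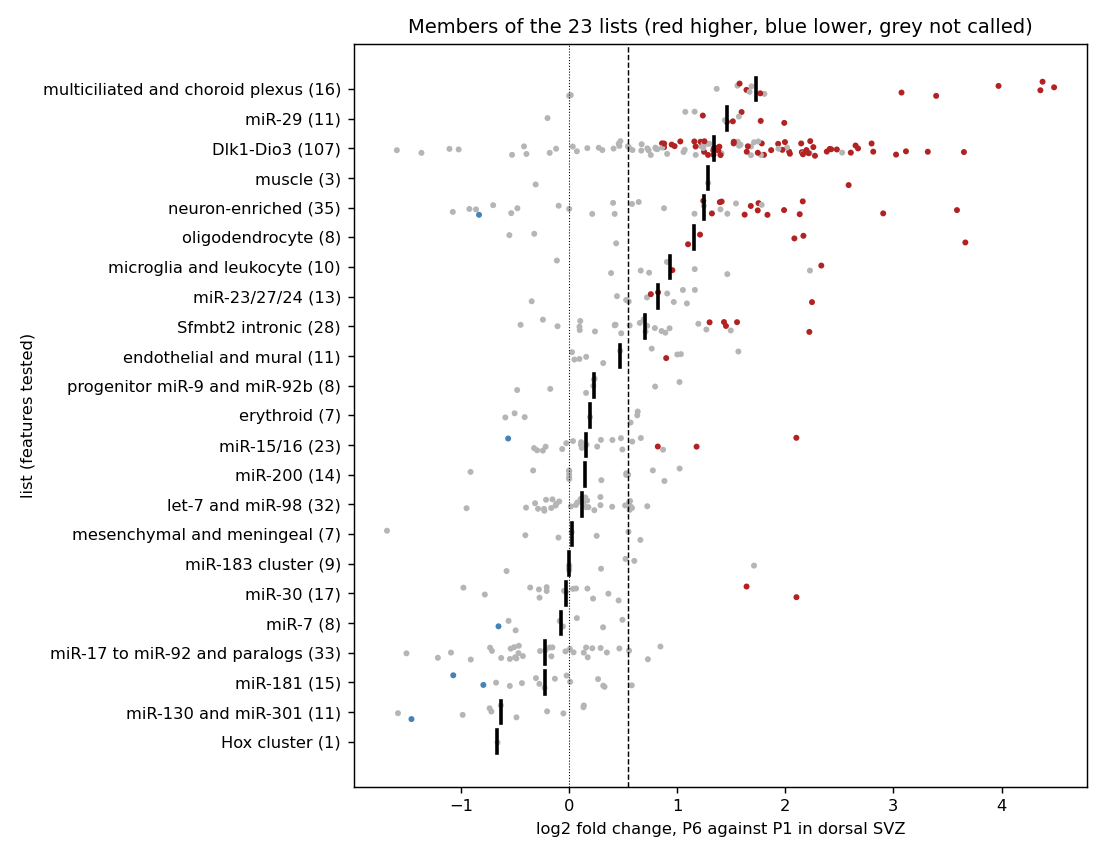
Log2 fold change of P6 against P1 in dorsal SVZ (horizontal axis) for the tested members of 23 lists (rows, with the number tested), red where called higher, blue where called lower and grey where not called, with a black bar at each list's median. The dashed line marks the median over all 807 rows, 0.54, and list medians run from 1.73 for multiciliated and choroid plexus microRNAs to -0.63 for miR-130 and miR-301, or -0.67 for the 1 Hox row.

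The largest called fall was in miR-708, which lies in an intron of the teneurin gene Tenm4. It scored 8217, 5943 and 7644 at P1 and 2814, 2017 and 2969 at P6, a difference of -1.49 ± 0.20 (2.81-fold lower, adjusted p = 9.03e-06). The highest P6 library was below the lowest P1 library, and the call held under each of 20 alternatives. Its other products pointed the same way without passing. miR-708* scored 121, 161 and 173 at P1 and 112, 105 and 94 at P6 (adjusted p = 0.253), and pre-mir-708 scored 16, 25 and 32 at P1 and 11, 3 and 3 at P6 (adjusted p = 0.0994). miR-28, with the same seed, scored 16, 27 and 56 at P1 and 73, 76 and 57 at P6 and did not pass (adjusted p = 0.116).

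miR-130b scored 2675, 1512 and 2756 at P1 and 720, 760 and 979 at P6, a difference of -1.46 ± 0.29 (2.75-fold lower, adjusted p = 0.000874), and it too kept its call under each of 20 alternatives. The much more abundant member with the same seed, miR-130a, scored 118744, 152097 and 118376 at P1 and 137523, 163611 and 125041 at P6, with overlap between the ages. miR-301a scored 15872, 15771 and 21203 at P1 and 14425, 10772 and 12392 at P6, without overlap but short of the threshold (adjusted p = 0.0652). In the family 1 of 11 rows was lower and 0 higher as deposited, with a median of -0.63, and 9 were lower under both trimmed-mean and median-microRNA scaling.

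The other falls were in abundant rows and were smaller. miR-181a-1* scored 9269, 9481 and 9512 at P1 and 2682, 4787 and 7002 at P6, a difference of -1.07 ± 0.28 (adjusted p = 0.00737). This call was lost without dorsal P6 replicate 1 (adjusted p = 0.0740) and with the 6 dorsal libraries fitted alone (adjusted p = 0.131). The P6 libraries of this star form were spread widely below a tight P1 group. miR-181c* scored 1826, 2480 and 2383 at P1 and 942, 1403 and 1566 at P6 (-0.79 ± 0.24, adjusted p = 0.0192), and was lost without dorsal P1 replicate 2, P1 replicate 3 or P6 replicate 1 (adjusted p up to 0.138). The mature form miR-181a scored 30634, 32353 and 34036 at P1 and 27663, 18671 and 26321 at P6 and did not pass (adjusted p = 0.166).

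miR-7a-1*, the star form of a microRNA that represses Pax6 in the SVZ, scored 5178, 5535 and 5355 at P1 and 4146, 2667 and 3564 at P6 (-0.65 ± 0.21, adjusted p = 0.0278). The call was lost without any of the 3 P1 libraries, without dorsal P6 replicate 2 and without the pair (adjusted p up to 0.217 over all alternatives that ended it). The fit on the dorsal libraries alone also ended it (adjusted p = 0.100). The mature form miR-7a scored 860, 661 and 505 at P1 and 895, 573 and 649 at P6, with overlap (adjusted p = 0.914). miR-16, which represses cyclins and other cell cycle genes, scored 26233, 22360 and 28657 at P1 and 16122, 17533 and 18394 at P6 (-0.56 ± 0.20, adjusted p = 0.0421). That call was lost in 9 of 20 alternatives, among them the omission of dorsal P1 replicate 1, P1 replicate 3 or any P6 library (adjusted p = 0.0591 to 0.174). miR-497, of the same seed, scored 514, 806 and 681 at P1 and 1329, 1007 and 1162 at P6, a rise of 0.82 ± 0.25 (adjusted p = 0.0222) that was lost in 7 of 20, among them the omission of dorsal P1 replicate 1, P6 replicate 1 or P6 replicate 3. Trimmed-mean and median-microRNA scaling also ended the call of miR-497, whose lowest change over the alternatives was 0.05. The other members shown with that seed, miR-195 and miR-15b, did not pass. Over the miR-15/16 list 3 rows were higher and 1 lower of 23, a smaller share of rises than the 20% of all rows. Of the 3, 1 was left without dorsal P1 replicate 1, P6 replicate 1 or P6 replicate 3 and 2 without P1 replicate 2 or P6 replicate 2, and with median-microRNA scaling 1 higher and 6 lower.

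Families linked to proliferation and to developmental timing gave no call on the deposited scores. Of the 33 rows of the miR-17 to miR-92 cluster and its paralogs, which promote proliferation in many progenitors, 0 were called in either direction by limma and 4 had an unadjusted p under 0.05, 3 of them lower and 1 higher. The summed score was 196557 to 208564 at P1 and 115414 to 169337 at P6, without overlap, and the median log2 change was -0.22. miR-19a scored 6181, 7376 and 6456 at P1 and 5640, 2955 and 4775 at P6 (adjusted p = 0.0867), and miR-25 scored 6309, 8468 and 8977 at P1 and 5186, 5402 and 6203 at P6 (adjusted p = 0.131). For both, every P6 library lay below every P1 library. With trimmed-mean scaling 8 of the 33 were lower, and 9 with the median. In lateral SVZ 7 were called lower on the deposited scores. The let-7 and miR-98 list, microRNAs that accumulate as stem cells differentiate, had 0 of 32 rows called by limma, 1 with an unadjusted p under 0.05, and a median of 0.12. Under those scalings the median was -0.45 and -0.65, with 8 and 11 rows lower.

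Smaller families held a few calls each, at shares near or under the 20% higher among all rows. The miR-23/27/24 clusters had 3 of 13 rows higher, miR-24-2* (2.25), miR-27a (0.82) and miR-24 (0.76 ± 0.19). Of these, only miR-24-2* was called under all 4 scalings. It was lost without dorsal P1 replicate 1, without the pair and with the dorsal libraries fitted alone. miR-24 scored 11340, 13014 and 12416 at P1 and 18382, 26717 and 17954 at P6, a direction that turned with median-microRNA scaling (-0.01). The call of miR-24 was lost without the pair (adjusted p = 0.0796), with trimmed-mean scaling and with the dorsal libraries fitted alone. The count of the clusters was 1 without dorsal P1 replicate 1 and 0 without the pair. The miR-30 family had 2 of 17 rows higher, both star forms of low score. miR-30b* averaged 62.7 and miR-30c-2* 23.7 at P6, and neither was called without dorsal P1 replicate 1, P6 replicate 1 or P6 replicate 2. Trimmed-mean and median-microRNA scaling ended both calls as well. The miR-200 family and the miR-183 cluster, abundant in epithelia and in young olfactory neurons, had 0 of 14 and 0 of 9 rows called by limma, 1 and 0 with an unadjusted p under 0.05, with summed scores of at most 136 in any dorsal library. The intronic Sfmbt2 cluster, which holds many near-identical copies that may share reads, had 5 of 28 higher, close to the 20% of all rows. The count was 1 without dorsal P1 replicate 1 or without P6 replicate 1, 2 without P1 replicate 2 or P6 replicate 2, 3 without P6 replicate 3, and 0 under the requirement of all 4 scalings.

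Markers of other cells that a dissection could carry were measured beside these groups. Of the microglial and leukocyte list 2 of 10 rows were higher, the same share as the 20% of all rows. miR-155, induced in activated immune cells, scored 24, 19 and 22 at P1 and 210, 79 and 86 at P6 (2.33 ± 0.56, adjusted p = 0.00411), and the lymphocyte microRNA miR-150 scored 351, 506 and 532 at P1 and 949, 799 and 910 at P6 (adjusted p = 0.0160). The defining myeloid microRNA miR-223 scored 367, 382 and 435 at P1 and 396, 333 and 365 at P6, with overlap. Summed, the list went from 947 to 1283 at P1 to 1649 to 2162 at P6, and its part in the other changes was not tested. With the pair, dorsal P1 replicate 1 or P6 replicate 1 left out, 1 of its 10 rows was higher and the call of miR-150 was lost (adjusted p = 0.0552 and above). Trimmed-mean scaling, median-microRNA scaling and the fit on the dorsal libraries alone also left 1 row higher and ended the call of miR-150. Its adjusted p reached 0.619 over the alternatives. The erythroid list had 0 of 7 rows called by limma on the deposited scores, 0 with an unadjusted p under 0.05. It summed to 3938 to 4947 at P1 and 1742 to 5201 at P6. Its row miR-451 was called lower with trimmed-mean and median-microRNA scaling (adjusted p = 0.00563 and 0.00471). The endothelial and mural list had 1 of 11 higher, miR-139-5p, which was not called without dorsal P1 replicate 1 or P6 replicate 1. Its call was also lost with trimmed-mean and median-microRNA scaling (adjusted p = 0.251 and 0.727) and with the dorsal libraries fitted alone (adjusted p = 0.111). In the same list stood miR-126-3p, the endothelial microRNA, at 3774, 3363 and 3899 at P1 and 4596, 2441 and 4659 at P6. The mesenchymal and meningeal list had 0 of 7 called by limma and 1 with an unadjusted p under 0.05, and miR-214 scored at most 18. With median-microRNA scaling 1 row of that list was called lower. Muscle microRNAs summed to at most 29 in a library. The Hox cluster microRNA miR-10b, a marker of hindbrain and spinal cord, was listed at 0 in 5 of the 6 libraries.

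Both arms of a hairpin were tested in 192 cases, matched by name. Both arms were called higher in 29, 1 arm was called higher and the other not called in 37, and 1 arm was called lower and the other not called in 4. Calls in opposite directions occurred in 0 pairs. Only 4 pairs held an arm called lower, so this count says little about whether arms move together. The median absolute difference between the log2 changes of the arms was 0.52. Among the falls this includes miR-181c*, whose partner miR-181c averaged 784 at P1 and 781 at P6, and miR-130b, whose star form scored 226, 385 and 383 at P1 and 218, 182 and 187 at P6 (adjusted p = 0.0876).

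The age change was then set against that of the lateral wall, which shares no library with the dorsal one. In 4 cases the column names give a dorsal and a lateral library of an age the same number, without saying whether they share an animal, and the test treated all libraries as separate. In lateral SVZ 116 rows were called higher and 17 lower. Of the 161 dorsal rises, 76 were also called higher in lateral SVZ (47.2% of the dorsal and 65.5% of the lateral list) and 158 had a positive difference there. Over all 807 rows the median log2 change in lateral SVZ was 0.42, so positive differences were common there. Of the 7 dorsal falls, 4 were called lower in lateral SVZ as well. A call in 1 wall and not in the other does not show a difference between walls, which was tested as an interaction. It passed for 2 rows (0.248%), and 71 had an unadjusted p under 0.05.

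miR-708 fell in dorsal SVZ and was higher at P6 in lateral SVZ, where it averaged 7075 at P1 and 11963 at P6 (0.75 on the log2 scale). The difference between the walls' changes was -2.24 ± 0.28 (adjusted p = 4.61e-05) and passed under each of 26 alternatives. miR-219-3p rose 12.7-fold in dorsal SVZ, while in lateral SVZ it averaged 64.7 at P1 and 130.0 at P6 and was not called. Its difference was 2.65 ± 0.53 (adjusted p = 0.0195). This call was lost in 10 of 26 alternatives (adjusted p = 0.0518 to 0.256), among them a block for those shared numbers (adjusted p = 0.0614) and the omission of dorsal P1 replicate 1, P1 replicate 3 or P6 replicate 3, and of lateral P1 replicate 1, P1 replicate 2 or P6 replicate 1. The lead microRNAs of the multiciliated list changed by similar amounts in lateral SVZ, 4.11 for miR-34c and 3.91 for miR-34b-5p, and the tests of the difference gave adjusted p = 0.944 and 0.899, which does not show that the walls are alike.

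**Figure D5:**
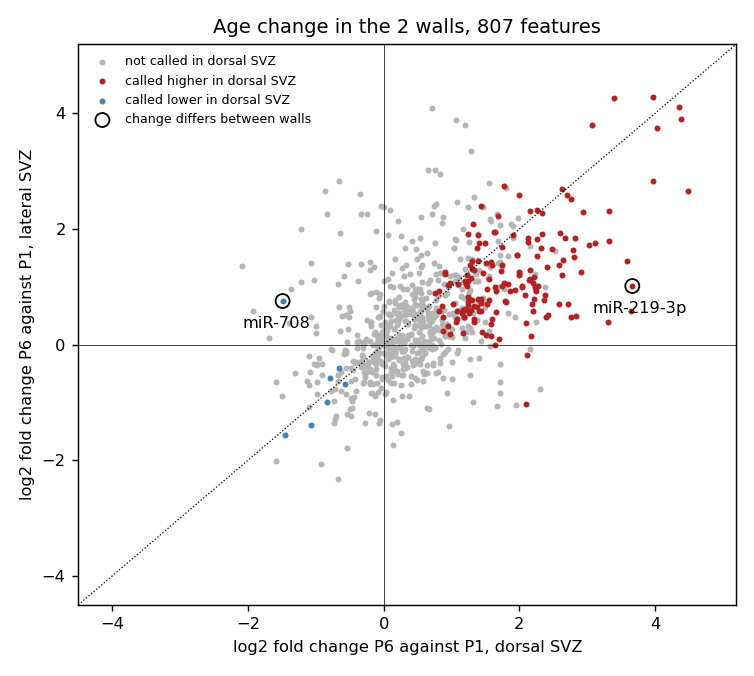
Log2 fold change of P6 against P1 in lateral SVZ (vertical axis) against that in dorsal SVZ (horizontal axis) for the 807 tested rows, coloured by the dorsal call, with circles around the 2 rows whose change differed between the walls. miR-708 lies at -1.49 and 0.75, on the opposite side of 0 in the other wall, and miR-219-3p at 3.66 and 1.01, far from the dotted line of equal change.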

How the data were processed

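Small RNA of 21 CD1 mouse libraries was extracted with a miRNeasy kit and read on a SOLiD 5500XL machine, per the labels' protocols. The deposited value is a score, a normalized count rounded to whole numbers by the authors. Bowtie, DESeq and mm9 are named in the submitters' processing notes, without roles. Ranked values were proportional between libraries (coefficient of variation 0.00789% at rank 100 and 0.685% at rank 1000 after 1 factor per library), so depth is unknown and count models could not be fitted.

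Scores were taken as log2(score + 1). limma 3.58.1 (R 4.3.3), fitted to all 21 libraries with 1 mean per labelled group (8) and a mean-variance trend, left 13 residual degrees of freedom. Contrasts were tested two-sided after a filter of at least 10 in at least 3 libraries, and the code was tested on simulated data. The members and lists were chosen with earlier results of these data known. The rule for naming took the 15 largest rises and falls among called rows with a mean of at least 50 and no overlap, the 10 highest scores of mature or star forms, up to 4 rows of smallest p per list, and rows whose change differed between walls. Alternatives covered scaling, pseudocount, filter, row class, libraries and spread. RefSeq gene positions served only to name neighbours, since mm9 is another build.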

Additional observations from a re-analysis of the deposited data

Results flagged for a closer look

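The change from P1 to P6 of miR-708 differed between the walls by the interaction test, at -2.24 ± 0.28 (SE) on the log2 scale for dorsal minus lateral (adjusted p = 4.61e-05, limma). The 3 dorsal P6 libraries were all below the 3 dorsal P1 libraries, while the lateral mean went from 7075 to 11963. The change of miR-219-3p also differed, at 2.65 ± 0.53 (adjusted p = 0.0195), with a lateral mean of 64.7 at P1 and 130.0 at P6. That call was lost in 10 of 26 alternatives, with adjusted p = 0.0518 to 0.256. Why these 2 rows differed was not tested.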

How the results depend on the processing

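Over the alternatives, the count of rows called in dorsal SVZ stayed between 116 and 173 except with the 6 dorsal libraries fitted alone (55) and without the pair of unusual class makeup (90). Leaving out each dorsal library in turn gave 116 to 170 calls, 106 to 166 higher and 4 to 10 lower. The count of rows called higher was 97 with trimmed-mean scaling, 70 with median-microRNA scaling, 52 in the dorsal fit and 83 without the pair. The count called lower was 61, 97 and 18 with trimmed-mean, median-microRNA and highest-value scaling, 11 with a filter of at least 50, and 3 in the dorsal fit. Rows whose change differed between walls numbered 7, 5 and 4 with those 3 scalings, 1 when only SVZ libraries were fitted, 1 without the pair, and 1 to 3 when a library of either wall was left out. With median-microRNA scaling miR-24 turned to -0.011 (adjusted p = 0.981) and miR-15a, 0.04 as deposited, to -0.73 (adjusted p = 0.0399). Why the counts moved was not tested. Titles number the replicates without stating a pairing. Deviations of same-numbered dorsal libraries correlated at -0.127, 0.021 and 0.106, which neither establishes nor excludes a pairing. A fit with replicate block gave 165 calls, 158 higher and 7 lower, and 2 between walls. A block for the numbers that 4 dorsal and lateral libraries share in their column names, chosen after the data were seen, gave 173 calls, 166 higher and 7 lower, and 1 between walls, miR-708. Deviations of those 4 pairs correlated at 0.0068 to 0.0791, which neither establishes nor excludes a pairing. The consensus correlation within a number in that block fit was -0.21. Unknown depth leaves a score near 0 indistinguishable from absence.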
